A study of Mus musculus with 6 samples.

Results

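The G1 regulators described here are 10 genes that govern the passage of a cell from G1 into S phase, namely the D-type cyclins Ccnd1, Ccnd2 and Ccnd3, the E-type cyclin Ccne1, the kinases Cdk4 and Cdk6, the kinase inhibitors Cdkn1b, Cdkn2c and Cdkn2d, and Rb1. They were chosen by name as cell cycle regulators that bear on quiescence, with earlier results of these data known. All 10 were found by gene identifier among the 45706 genes of the count table. RNA was sequenced from LSK cells (Lin- Sca-1+ c-Kit+, the bone marrow compartment of hematopoietic stem and progenitor cells) of 3 Ctrl and 3 cKO male C57BL/6 mice, littermates per the study's methods, with 1 library per mouse. The Ctrl mice carried 1 conditional Setd1b allele (HET, FD/+; RC/+) and the cKO mice 2 (HOM, FD/FD; RC/+). Both groups carried the Rosa26-Cre-ERT2 allele (RC), which acts in almost all tissues, and both received tamoxifen, 4.5 mg per day by gavage for 4 days and, after a pause of 3 days, for 2 more days. All mice were 16 weeks old except cKO 3, which was 17 weeks old, and cells were taken 3 days after the last dose. Since deletion was not limited to blood cells, an effect within LSK cells and an effect through other tissues cannot be told apart.

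D-type cyclins bind Cdk4 or Cdk6 in response to growth signals, and the active kinases phosphorylate Rb1, which then releases E2F transcription factors to switch on genes of DNA replication. Ccne1 activates Cdk2 and drives the same step further. Inhibitors of the INK4 type, such as Cdkn2c (p18) and Cdkn2d (p19), bind Cdk4 and Cdk6 alone, whereas those of the Cip/Kip type, such as Cdkn1b (p27), bind complexes of cyclins and kinases. In bone marrow, most stem cells rest outside the cycle while the progenitors around them divide, and kinase inhibitors and low activity of Cdk6 are known features of the resting state.

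Of the G1 regulators, 2 inhibitors rose in the libraries labelled cKO, Cdkn1b by 1.25-fold and Cdkn2c by 1.39-fold, and none of the 10 genes fell. Cyclins, kinases and Rb1 had log2 fold changes from -0.19 to 0.09, and no call was made among them. The threshold was an adjusted p under 0.05 from edgeR's quasi-likelihood test of the 6 libraries, with Benjamini-Hochberg adjustment across the 15184 genes left by a filter on low counts, which all 10 members passed. Thus 2 of 10 were higher, where 3.88% of all genes tested were, and 0 of 10 were lower, where 3.79% were and 7.67% differed in either direction. As the members were chosen with earlier results known, these shares describe the list and do not test it. At an unadjusted p under 0.05 there were 3 of 10 genes, all higher, against 22.9% of all genes. With the DESeq2 test Cdkn1b passed (adjusted p = 0.022), Cdkn2c did not (adjusted p = 0.056), and no other member did. The shares of all genes given here are those of the edgeR test. The 3 Ctrl and the 3 cKO values did not overlap for 4 of the 10 genes, against 27.3% of all genes. The median log2 fold change of the 10 genes was -0.04 and that of all genes tested was 0.00023.

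Total counts lay between 13003573 and 21277519 per library, and values are given in CPM, that is, counts relative to library size after scaling by TMM factors in edgeR. The numbering of the libraries in the table's header forms 2 series, taken here as a possible batch. The first holds Ctrl 1, cKO 1 and cKO 2, and the second holds Ctrl 2, Ctrl 3 and cKO 3. Setd1b itself was not lower but higher in the libraries labelled cKO, with 221, 194 and 223 CPM in Ctrl 1 to 3 and 272, 288 and 314 CPM in cKO 1 to 3 (log2 fold change 0.46, standard error 0.073, adjusted p = 0.0015), and was higher within each series (0.34 and 0.60). The deletion takes out a single exon, whose loss counts per gene cannot show, so that this count does not check the genotypes, and every direction given here is that of the libraries labelled cKO against Ctrl. Of the genes of the gate, Kit was at 395 to 514 CPM, Cd34 at 405 to 451 CPM and Ly6a, which encodes Sca-1, at 35.8 to 56.3 CPM over all 6 libraries, while Cd3e, Cd8a, Cd79a and Ly6g stayed at or under 0.286 CPM in each library.

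Both calls among the members were of inhibitors. Cdkn1b (ENSMUSG00000003031, chromosome 6, 134920401 to 134925513 of GRCm38, plus strand) had 47.8, 43.6 and 46.5 CPM in Ctrl 1 to 3 and 53.2, 61.7 and 57.5 CPM in cKO 1 to 3. All 3 cKO values lay above all 3 Ctrl values. The means were 46.0 ± 2.15 and 57.5 ± 4.24 CPM (SD, n = 3 each). On the log2 scale Cdkn1b was higher by 0.32 with a standard error of 0.085 (edgeR's quasi-likelihood test, adjusted p = 0.031), and the differences within the 2 series were 0.26 and 0.35. The call was lost without Ctrl 2 (log2 fold change 0.28, adjusted p = 0.11), Ctrl 3 (0.33, adjusted p = 0.082), cKO 2 (0.27, adjusted p = 0.16) or cKO 3 (0.32, adjusted p = 0.074), and also once the dependence on gene length had been taken out of each library (0.28, adjusted p = 0.053). The gene was higher in each of the 13 other fits, at 0.27 to 0.38, and past the threshold in 8 of them.

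Cdkn2c (ENSMUSG00000028551, chromosome 4, 109660876 to 109667189, minus strand) encodes an INK4 inhibitor and was the member with the largest difference. It had 11.5, 13.6 and 12.6 CPM in Ctrl 1 to 3 and 18.8, 15.1 and 18.7 CPM in cKO 1 to 3, from 150 to 285 counts per library. The groups did not overlap, with cKO 2 nearest to Ctrl. The means were 12.6 ± 1.05 and 17.5 ± 2.09 CPM (SD, n = 3 each). The difference on the log2 scale was 0.48 with a standard error of 0.14 (edgeR's quasi-likelihood test, adjusted p = 0.048), and the series gave 0.55 and 0.51. This p-value lay close to the threshold, and the call was lost without Ctrl 1 (0.42, adjusted p = 0.11), Ctrl 2 (0.54, adjusted p = 0.058), Ctrl 3 (0.47, adjusted p = 0.12), cKO 1 (0.42, adjusted p = 0.15) or cKO 3 (0.42, adjusted p = 0.15), with DESeq2 (0.47, adjusted p = 0.056) and under a filter of 10 or more counts per library (0.48, adjusted p = 0.0505). Over the 13 other fits the log2 fold change lay between 0.42 and 0.57.

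Cdkn2d (ENSMUSG00000096472, chromosome 9, 21288463 to 21291209, minus strand), the other INK4 inhibitor of the list, had 9.57, 9.06 and 9.21 CPM in Ctrl 1 to 3 and 13.1, 10.2 and 13.7 CPM in cKO 1 to 3. The Ctrl values were close together and cKO 2 was again the cKO library nearest to them, without overlap. The log2 fold change of 0.41 had a 95% interval from 0.07 to 0.75 and did not pass the threshold (adjusted p = 0.13). It was 0.27 in the first series and 0.58 in the second, and lay between 0.33 and 0.54 over the 13 other fits, none of them past the threshold. This is the member with the fewest counts, from 125 to 196 per library.

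**Figure D1:**
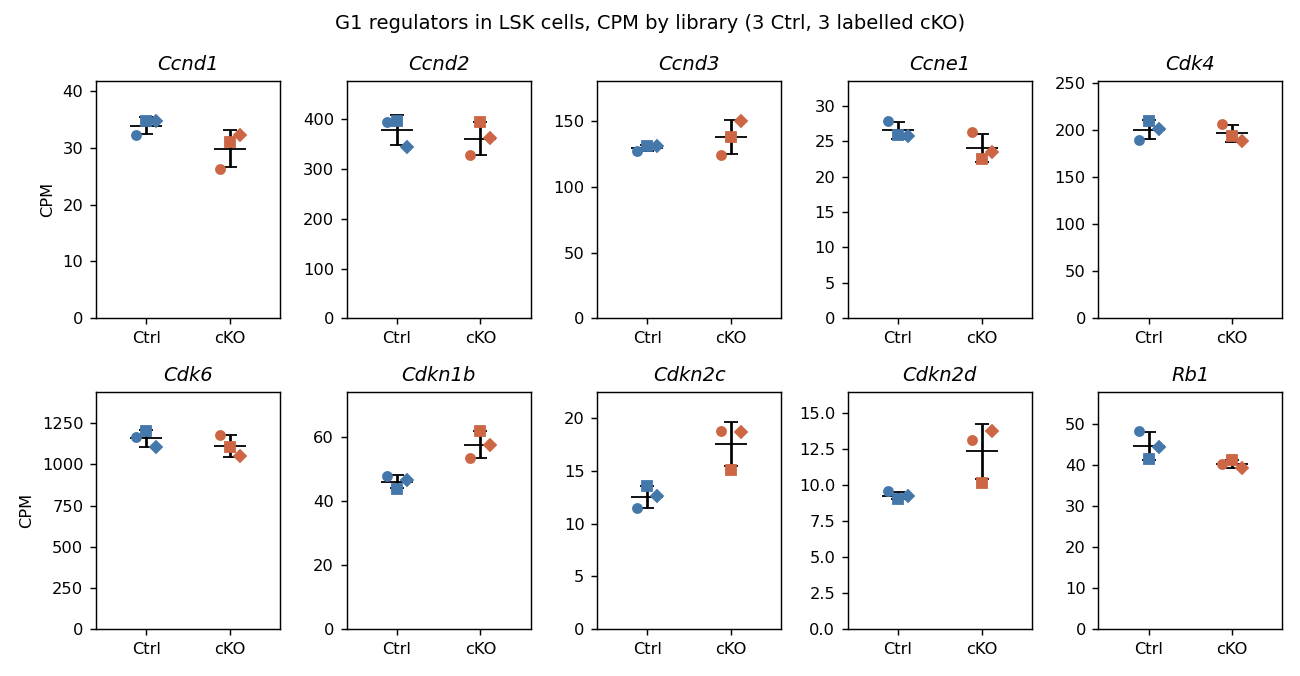
CPM of each of the 10 G1 regulators (vertical axis from 0, a scale of its own per gene) in the 3 Ctrl libraries (blue) and the 3 libraries labelled cKO (orange), with circle, square and diamond for mice 1, 2 and 3 of each group, and the mean ± SD in black. In the panels of Cdkn1b, Cdkn2c and Cdkn2d all cKO points lie above all Ctrl points, in that of Rb1 all lie below, and in the other 6 panels the groups overlap.

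The promoters of these 3 inhibitors are shown because the cKO values of each lay above its Ctrl values, with 2 of the 3 past the threshold, and because Setd1b belongs to a complex that methylates H3K4 at promoters rich in CpG. RefSeq windows on GRCm38.p6, from 250 bases before to 50 after a start site, were found for 7 of the 10 genes, with 2 start sites each for Cdkn2c and Ccnd3, 9 windows in all. Capitals mark CpG.

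Cdkn1b, chr6:134920151-134920450, plus strand: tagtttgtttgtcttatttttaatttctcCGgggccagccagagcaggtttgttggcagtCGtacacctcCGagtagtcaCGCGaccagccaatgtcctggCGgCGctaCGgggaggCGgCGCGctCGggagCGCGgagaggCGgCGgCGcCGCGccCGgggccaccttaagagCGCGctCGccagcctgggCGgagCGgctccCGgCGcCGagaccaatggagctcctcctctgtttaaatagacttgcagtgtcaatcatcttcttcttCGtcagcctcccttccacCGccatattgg
Cdkn2c first start, chr4:109666707-109667006, minus strand: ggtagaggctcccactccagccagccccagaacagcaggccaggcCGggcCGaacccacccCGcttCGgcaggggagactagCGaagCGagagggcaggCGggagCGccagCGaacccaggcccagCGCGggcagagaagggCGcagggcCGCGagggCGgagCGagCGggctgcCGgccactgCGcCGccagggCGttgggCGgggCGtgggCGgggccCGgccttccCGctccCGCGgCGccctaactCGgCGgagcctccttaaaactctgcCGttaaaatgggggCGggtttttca
Cdkn2c second start, chr4:109665323-109665622, minus strand: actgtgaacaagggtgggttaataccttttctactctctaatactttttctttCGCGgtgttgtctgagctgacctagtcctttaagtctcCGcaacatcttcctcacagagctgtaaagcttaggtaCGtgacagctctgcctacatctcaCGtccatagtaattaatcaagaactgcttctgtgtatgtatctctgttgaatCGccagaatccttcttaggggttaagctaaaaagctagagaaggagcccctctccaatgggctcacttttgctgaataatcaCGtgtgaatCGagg
Cdkn2d, chr9:21291160-21291459, minus strand: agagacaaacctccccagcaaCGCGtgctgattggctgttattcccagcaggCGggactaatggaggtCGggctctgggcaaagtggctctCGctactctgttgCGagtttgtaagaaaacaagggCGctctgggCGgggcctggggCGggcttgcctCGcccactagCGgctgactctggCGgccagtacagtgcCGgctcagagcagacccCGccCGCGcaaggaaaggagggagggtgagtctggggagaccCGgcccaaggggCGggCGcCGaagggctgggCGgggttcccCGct

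The window of Cdkn1b held 30 CpG, the windows of Cdkn2c 33 at the first and 8 at the second start, and that of Cdkn2d 22. The other members with a window had 41 in that of Ccne1, 27 in that of Cdk6, 22 in that of Cdk4, and 15 and 28 in those of Ccnd3. Their range overlapped that of the inhibitors. At least 20 CpG were present in 7 of the 9 windows, whereas 26.5% of all 32851 windows had as many and the median was 7. All windows here are those of 27025 genes, whether or not they passed the filter on low counts, which all members passed. The part of this in the difference of the shares was not tested. The E2F letters TTTCCCGC, TTTGGCGC, TTTCGCGC and TTTGCCGC, sought on both strands, were in none of the 9 windows and in 2.26% of all windows. The FOXO letters TGTTTAC, sought likewise, were in 1 of the 9, the window at the first start of Ccnd3, and in 3.65% of all.

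The D-type cyclins, which couple growth signals to the cycle, showed no difference past the threshold. Ccnd2 (ENSMUSG00000000184, chromosome 6, 127125162 to 127152193, minus strand) was the most abundant of them, with 394, 398 and 344 CPM in Ctrl 1 to 3 and 328, 394 and 362 CPM in cKO 1 to 3. The groups overlapped almost entirely. The log2 fold change was -0.07 (95% interval -0.23 to 0.10, adjusted p = 0.67). For Ccnd3 (ENSMUSG00000034165, chromosome 17, 47505051 to 47599691, plus strand), the values were 127, 131 and 131 CPM in Ctrl and 125, 138 and 151 CPM in cKO. The Ctrl values were nearly equal and the cKO values spread around and above them, with a log2 fold change of 0.09 (95% interval -0.07 to 0.24, adjusted p = 0.53). Ccnd1 (ENSMUSG00000070348, chromosome 7, 144929931 to 144939869, minus strand) had 32.2, 34.8 and 34.7 CPM in Ctrl and 26.27, 31.003 and 32.33 CPM in cKO, where only cKO 3 reached into the Ctrl range. Its log2 fold change of -0.19 was the lowest of the 10 members (95% interval -0.40 to 0.03, adjusted p = 0.31).

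Ccne1 (ENSMUSG00000002068, chromosome 7, 38097984 to 38107534, minus strand), the partner of Cdk2 at the entry into S phase, had 27.9, 25.9 and 25.7 CPM in Ctrl 1 to 3 and 26.3, 22.5 and 23.5 CPM in cKO 1 to 3. cKO 1 lay within the Ctrl range and the other two cKO libraries below it. The log2 fold change was -0.14 (95% interval -0.37 to 0.09, adjusted p = 0.49).

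The levels of both kinases were close in the groups. Cdk6 (ENSMUSG00000040274, chromosome 5, 3341485 to 3531008, plus strand), whose level is known to rise as stem cells prepare to leave quiescence, had 1167, 1201 and 1104 CPM in Ctrl 1 to 3 and 1181, 1109 and 1050 CPM in cKO 1 to 3. Its log2 fold change was -0.06, with a 95% interval from -0.19 to 0.08 (adjusted p = 0.66). Cdk4 (ENSMUSG00000006728, chromosome 10, 127063534 to 127067920, plus strand) had 190, 210 and 202 CPM in Ctrl and 207, 194 and 189 CPM in cKO. The log2 fold change was -0.03 (95% interval -0.17 to 0.11, adjusted p = 0.84), and the series differed in sign, at 0.08 in the first and -0.12 in the second. In both kinases the groups overlapped.

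Rb1 (ENSMUSG00000022105, chromosome 14, 73183673 to 73325822, minus strand), the pocket protein that restrains E2F factors, had 48.2, 41.4 and 44.5 CPM in Ctrl 1 to 3 and 40.3, 41.1 and 39.3 CPM in cKO 1 to 3. All cKO values lay below all Ctrl values, by a narrow margin. The log2 fold change of -0.15 did not pass the threshold (95% interval -0.34 to 0.04, adjusted p = 0.34). Rb1 is the only member that overlaps other genes on its own strand, Gm17233 and Mir687, for which the counting could have set reads aside.

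**Figure D2:**
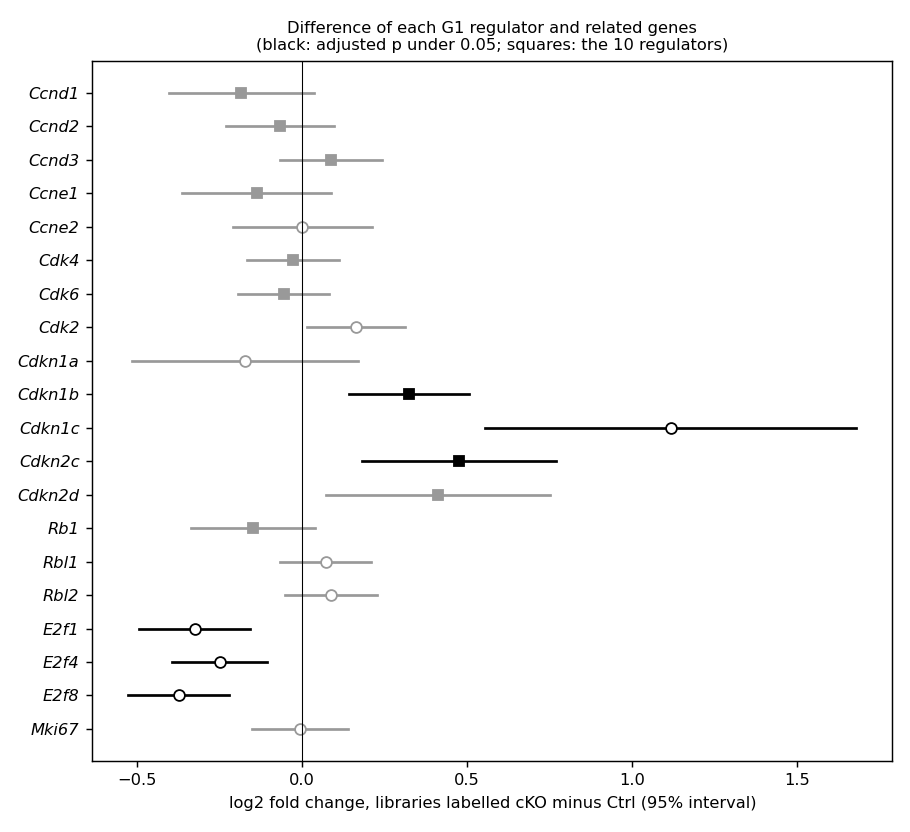
Log2 fold change (libraries labelled cKO minus Ctrl, horizontal axis) with its 95% interval for the 10 G1 regulators (squares) and 10 related genes (open circles), black where the adjusted p was under 0.05. Cdkn1b, Cdkn2c and Cdkn1c lie to the right of 0, E2f1, E2f4 and E2f8 to the left, and the intervals of the cyclins, of Cdk4 and Cdk6 and of the pocket proteins span 0.

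Levels were compared between genes as CPM per kb of exon, since long genes collect more reads. Cdk6 stood first in Ctrl with 82.8 ± 3.52 CPM per kb (SD, n = 3), before Cdk4 with 61.8 ± 3.20, Ccnd2 with 40.2 ± 3.23 and Ccnd3 with 14.8 ± 0.24. Cdkn1b with 10.1 ± 0.47 and Ccne1 with 9.97 ± 0.46 followed and overlapped each other. Ccnd1 came next with 8.84 ± 0.38, then Rb1 with 7.43 ± 0.56 and Cdkn2d with 7.30 ± 0.20, which overlapped, and Cdkn2c was last with 4.67 ± 0.39. In the libraries labelled cKO the first 5 places were the same. Cdkn2d stood sixth there with 9.72 ± 1.51 CPM per kb, overlapping Ccne1 with 9.05 ± 0.73, and Cdkn2c with 6.53 ± 0.78 overlapped Rb1 with 6.69 ± 0.15 at the end of the order. The length used is that of all exons of a gene together, so that a gene with long alternative ends that these cells do not use would be placed too low.

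The ratio between the kinases and the shares of the D-type cyclins had overlapping values in the groups. The ratio of Cdk6 to Cdk4, from levels per kb, was 1.43, 1.33 and 1.27 in Ctrl 1 to 3 and 1.33, 1.33 and 1.29 in cKO 1 to 3 (exact permutation test, two-sided p = 0.8). Ccnd2 made up 62.9 ± 2.27% of the D-type cyclin level per kb in Ctrl and 62.1 ± 1.85% in cKO (SD, n = 3 each, exact permutation test, p = 0.5). The share of Ccnd3 was 23.2 ± 1.27% and 25.4 ± 1.41%, and that of Ccnd1 was 13.9 ± 1.02% and 12.6 ± 0.51% (SD, n = 3 each, exact permutation test, p = 0.2 for both). With 3 mice against 3, this test gives no two-sided p below 0.1 and could not have called a difference.

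**Figure D3:**
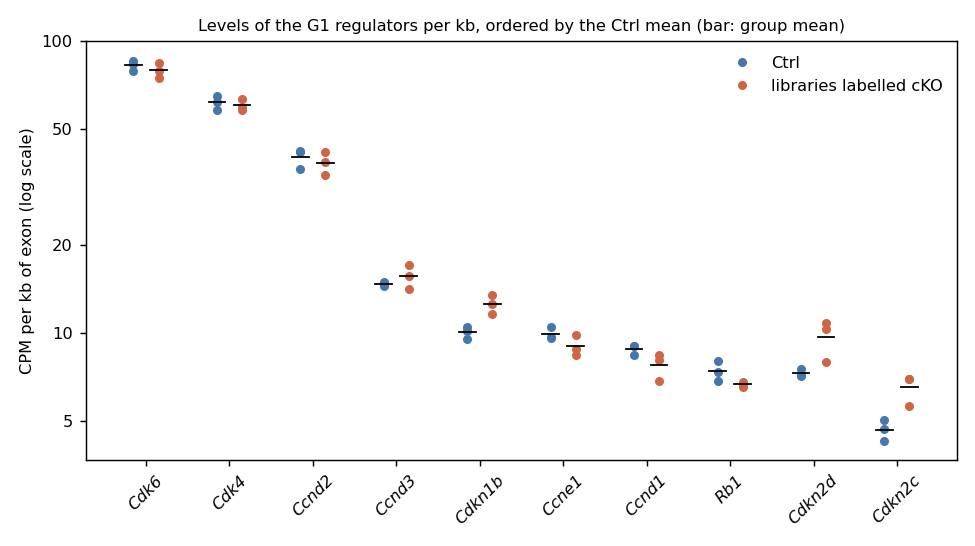
Level of each G1 regulator in CPM per kb of exon (log scale) in the 3 Ctrl libraries (blue) and the 3 libraries labelled cKO (orange), with the group mean as a bar and genes ordered by the Ctrl mean. Cdk6, Cdk4 and Ccnd2 lie above 30 CPM per kb in each library, the other 7 genes below 20, and the points of Cdkn2c and Cdkn2d are shifted upward in cKO.

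Among the relatives of the members, a list of 41 other genes of G1 and of the step from G1 to S held 38 tested genes, of which 2 were higher and 4 lower past the threshold, where 3.88% of all genes were higher and 3.79% lower, with a median log2 fold change of -0.04. Cdkn1c (p57), another Cip/Kip inhibitor and known for its high level in quiescent stem cells, had 1.91, 2.67 and 2.69 CPM in Ctrl 1 to 3 and 4.36, 5.27 and 6.31 CPM in cKO 1 to 3. All cKO values lay above the Ctrl values, from 25 to 90 counts per library, a difference of 1.12 on the log2 scale with a standard error of 0.26 (edgeR's quasi-likelihood test, adjusted p = 0.017), and 1.270 and 1.199 in the 2 series. The call was lost without cKO 2 (1.12, adjusted p = 0.066) or cKO 3 (0.98, adjusted p = 0.091). Cdkn1a (p21), a target of p53, had 22.1, 37.7 and 25.3 CPM in Ctrl and 26.9, 22.7 and 26.5 CPM in cKO, overlapping groups with a log2 fold change of -0.17 (adjusted p = 0.58) that was 0.09 without Ctrl 2. The remaining INK4 genes were hardly detected, with 2 counts of Cdkn2a in cKO 1 and none of it elsewhere, and no count of Cdkn2b in any library, where up to 3 counts, or 0.143 to 0.230 CPM, could have been missed.

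Ccng2, a cyclin-like gene of cells that leave the cycle, rose (log2 fold change 0.53, adjusted p = 0.011), from 23.34, 22.55 and 19.96 CPM in Ctrl to 34.5, 33.0 and 27.3 CPM in cKO. It missed the threshold without Ctrl 3 (0.46, adjusted p = 0.061), cKO 1 (0.46, adjusted p = 0.058) or cKO 2 (0.49, adjusted p = 0.064). Its relative Ccng1, a target of p53, fell (log2 fold change -0.40, adjusted p = 0.0028), and passed the threshold in all 13 other fits. Of the remaining partners of the members, Ccne2 (log2 fold change -0.00038), Cdk2 (0.16, adjusted p = 0.17), Rbl1 (0.07) and Rbl2 (0.09) did not pass.

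Factors of the E2F family gave the other 3 lower genes of this list. E2f1, an activator, had 51.3, 52.2 and 52.4 CPM in Ctrl 1 to 3 and 41.7, 41.7 and 41.0 CPM in cKO 1 to 3, well apart and with little spread (log2 fold change -0.33, adjusted p = 0.019). Leaving out any mouse but Ctrl 1 ended this call, at log2 fold changes from -0.33 to -0.32 and adjusted p-values from 0.0519 (without cKO 3), 0.0547 (Ctrl 2), 0.0576 (cKO 1) and 0.0596 (Ctrl 3) to 0.0721 (cKO 2). E2f8, a repressor and itself an E2F target, fell from 210, 185 and 205 CPM in Ctrl to 166, 152 and 145 CPM in cKO (log2 fold change -0.37, adjusted p = 0.0046), past the threshold in all 13 other fits. E2f4, a repressor that acts with pocket proteins and is named here after its values were seen, fell as well (-0.25, adjusted p = 0.034), and was lost without Ctrl 1 (-0.25, adjusted p = 0.065), Ctrl 3 (-0.21, adjusted p = 0.13), cKO 1 (-0.25, adjusted p = 0.10) or cKO 2 (-0.23, adjusted p = 0.15) and with the library series as a covariate (-0.24, adjusted p = 0.052).

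Genes that E2F factors switch on for S phase were measured with a list of 25, all tested, of which 3 were lower and 0 higher past the threshold (3.79% and 3.88% of all genes), at a median log2 fold change of -0.08. At an unadjusted p under 0.05, 8 of the 25 were lower and 0 higher, where 22.9% of all genes passed in either direction. DESeq2 called 2 genes of the list in all, a count for which no share of all genes is given here. Cdc6, which loads the replicative helicase, had 78.3, 84.9 and 81.6 CPM in Ctrl 1 to 3 and 74.8, 64.7 and 60.9 CPM in cKO 1 to 3 (log2 fold change -0.29, adjusted p = 0.047). Cdt1, its partner in that step, had 113, 119 and 116 CPM in Ctrl and 102, 89.5 and 99.9 CPM in cKO (-0.26, adjusted p = 0.036). Mcm5, a subunit of the helicase, had 343, 347 and 361 CPM in Ctrl and 171, 330 and 155 CPM in cKO (-0.68, adjusted p = 0.042), so that cKO 2 was close to Ctrl and the other two cKO libraries far below. With DESeq2 the adjusted p of Mcm5 was 0.29. Cdt1 missed the threshold with the library series as a covariate (-0.24, adjusted p = 0.062).

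Of these 3 calls, 1 was left without Ctrl 1, cKO 1 or cKO 2 and none without Ctrl 2, Ctrl 3 or cKO 3. Adjusted p-values in these fits reached 0.19 for Cdt1 (log2 fold change -0.20, without cKO 2), 0.18 for Cdc6 (-0.27, without cKO 2) and 0.16 for Mcm5 (-0.53, without cKO 1). The summed level of the 25 genes was 5736, 5879 and 5954 CPM in Ctrl 1 to 3 and 5603, 5539 and 5230 CPM in cKO 1 to 3, without overlap (exact permutation test, two-sided p = 0.1). Without Mcm5, a choice made after the data had been seen, the sums were 5393 to 5593 CPM in Ctrl and 5075 to 5431 CPM in cKO and overlapped (exact permutation test, p = 0.2).

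Genes of G2 and mitosis, a list of 25, held none past the threshold in edgeR's quasi-likelihood test or in DESeq2. The edgeR test called 7.67% of all genes, and no such share is given here for DESeq2. At an unadjusted p under 0.05, 2 of the list were higher and 3 lower, where 22.9% of all genes passed in either direction. Its median was 0.02 on the log2 scale. Mki67, which encodes the proliferation marker Ki-67, had 1807, 1543 and 1733 CPM in Ctrl 1 to 3 and 1768, 1661 and 1627 CPM in cKO 1 to 3. The groups overlapped, and the log2 fold change was -0.0072 with a 95% interval from -0.15 to 0.14 (adjusted p = 0.97). The summed level of the list lay between 3971 and 4410 CPM in Ctrl and between 4121 and 4613 CPM in cKO.

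A list of 24 genes associated with quiescence of stem cells contained 5 higher and 0 lower genes past the threshold, where 3.88% of all genes were higher and 3.79% lower. At an unadjusted p under 0.05 there were 10 higher and 0 lower, where 22.9% of all genes passed in either direction. The list's median log2 fold change was 0.21. Within the library series this median was 0.05 (first) and 0.41 (second). Among the higher genes were Tek (0.82), a receptor for angiopoietin, Txnip (0.45), a regulator of redox state, and Tgfbr2 (0.32), a receptor for TGF-beta. Tgfbr2 missed the threshold in each fit without 1 mouse except that without Ctrl 1, at 0.25 to 0.37 with adjusted p-values from 0.0525 to 0.133, and also with the length trend removed (0.27, adjusted p = 0.061). Tek had been picked out by the study on these same libraries and is no independent evidence. Foxo3 (0.04), Foxo4 (0.13) and Foxo1 (0.44, adjusted p = 0.077), factors that are known to act on the Cdkn1b gene, did not pass.

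Upstream of the D-type cyclins, 20 genes of growth signals were listed, of which 3 were higher and 1 lower past the threshold (3.88% and 3.79% of all genes), with a median log2 fold change of 0.06. Myc, an activator of cyclin D and E2F genes, fell from 475, 482 and 515 CPM in Ctrl 1 to 3 to 363, 386 and 387 CPM in cKO 1 to 3 (log2 fold change -0.37, adjusted p = 0.0017) and passed in all 13 other fits. Its paralogue Mycn rose from 39.8, 53.2 and 46.6 to 57.2, 69.1 and 101 CPM (0.70, adjusted p = 0.014) and missed the threshold without Ctrl 3 (0.69, adjusted p = 0.064) or cKO 3 (0.43, adjusted p = 0.056) and with DESeq2 (adjusted p = 0.0998). Stat3 (0.44), which carries signals of cytokine receptors, was also higher.

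**Figure D4:**
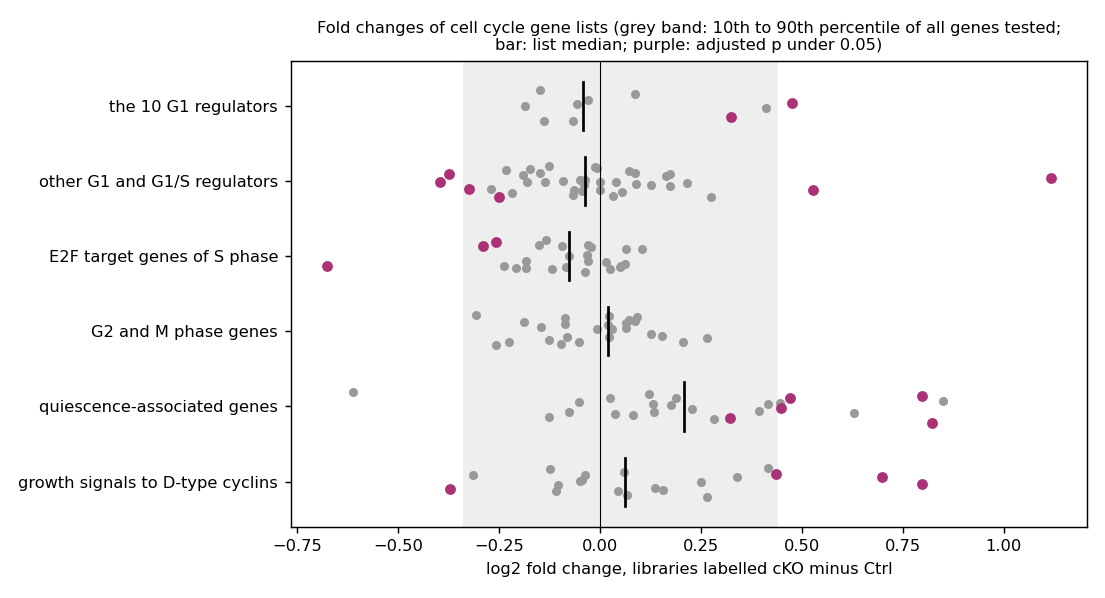
Log2 fold change (libraries labelled cKO minus Ctrl, horizontal axis) of each tested gene in the 6 cell cycle lists, with the list median as a bar, genes with an adjusted p under 0.05 in purple, and the 10th to 90th percentile of all genes tested (-0.34 to 0.44) as a grey band. The medians of the G1, S phase and mitotic lists lie within 0.08 of 0 and that of the quiescence list at 0.21.

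Markers of blood lineages and of stroma moved between the same libraries. The paper describes many of the affected lineage genes as also expressed, at low levels, by stem and progenitor cells themselves. In bulk RNA, fewer cells of a type and less RNA per cell cannot be told apart. Beside the counts of called markers below, 3.88% of all genes tested were higher and 3.79% lower past the threshold. The summed level of 11 granulocyte and monocyte genes was 2989 to 3594 CPM in Ctrl and 544 to 870 CPM in cKO, with 10 of the 11 lower past the threshold. Most of the Ctrl sum was Mpo, with 2933, 2299 and 2773 CPM in Ctrl and 460, 354 and 265 CPM in cKO. Erythroid genes (7 of 9 tested lower) summed to 496 to 556 and 294 to 347 CPM, lymphoid genes (3 of 7 tested lower) to 441 to 1023 and 107 to 157 CPM, and genes of mast cells and basophils (3 of 5 lower) to 55.0 to 62.4 and 18.4 to 25.9 CPM. The erythroid sum was mostly Car2 and Tfrc, and the lymphoid sum mostly Dntt and Ighm. Genes of stroma and endothelium (4 of 4 tested lower) summed to 125 to 135 and 96.5 to 99.0 CPM. Most of this sum was Pecam1, with 112, 119 and 115 CPM in Ctrl and 92.6, 90.3 and 93.6 CPM in cKO. Col1a2, Cxcl12 and Vcam1 stayed at or under 6.82 CPM in each library, so that the sum mainly followed Pecam1. Megakaryocyte genes (1 higher and 1 lower of 6 tested) summed to 158 to 195 and 168 to 237 CPM. Of the 9 lineage-positive markers, 3 were tested, and 1 was higher (Itgam) and 1 lower (Nkg7). The 7 genes of the LSK gate and its subsets had overlapping sums (1399 to 1583 and 1378 to 1535 CPM). Most of this sum was Kit, Cd34, Ptprc and Flt3, so that a shift of a gene at a low level would not show in it. Flt3, a marker of subsets, had 275, 280 and 192 CPM in Ctrl and 177, 221 and 203 CPM in cKO (-0.31, adjusted p = 0.12 in edgeR's quasi-likelihood test). Of the 7 genes only Procr, a marker of long-term stem cells, passed the threshold in edgeR's quasi-likelihood test. It rose from 5.586, 5.196 and 3.647 to 13.4, 11.2 and 14.4 CPM (log2 fold change 1.43, adjusted p = 0.00036). Slamf1 of the same list had 12.9, 14.1 and 14.8 CPM in Ctrl and 13.3, 14.1 and 14.0 CPM in cKO (-0.015, adjusted p = 0.96). The part of these marker differences in those of Cdkn1b, Cdkn2c, Cdkn1c and the E2F genes was not tested.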

How the data were processed

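Sorted LSK cells of 3 Ctrl and 3 cKO mice were profiled by RNA-seq with 75 bp single reads. The authors aligned the reads to GRCm38 with GSNAP and deposited counts of uniquely aligned reads per Ensembl gene from featureCounts 1.5.0, counted with regard to strand and from a mapping quality of 1 upward, neither normalized nor pooled. Each of the 45706 rows names a gene. The exon length deposited beside the counts served for levels per kb. Symbols came from GENCODE M21 (98.8% of genes).

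Differences were computed with edgeR 4.0.16 (R 4.3.3) from all 6 libraries in a model of genotype alone, TMM scaling, filterByExpr defaults and Benjamini-Hochberg adjustment over the 15184 genes tested. Standard errors were the absolute log2 fold change over the square root of F, and 95% intervals used the test's degrees of freedom. Series differences are of mean log2 CPM (prior count 2). Mice were numbered within a group in the order of the samples.

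Alternatives were DESeq2's size factors, the DESeq2 1.42.0 test, omission of the low-count filter, a filter of 10 or more counts per library, the library series as a covariate, removal of mitochondrial, rRNA and dominant genes (above 1% of a library), removal of the trend against gene length (loess, span 0.3), and leaving out each mouse.

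Members and lists were chosen with earlier results of these data known, and lists are given by counts and medians, with no test of a set. Named were Setd1b, the members, Ccne2, Cdk2, Cdkn1a, Cdkn1c, Rbl1, Rbl2, Mki67 and up to 5 genes past the threshold per list. Other genes were named after their values were seen, and some genes of the lists are counted but not reported here by name. The procedure was tested on simulated data with planted differences larger than those of the members. This test does not show its power at the sizes seen in the members. The authors' fold changes were not used.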

Additional observations from a re-analysis of the deposited data

How the results depend on the processing

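The direction of Cdkn1b, Cdkn2c and Cdkn2d was kept in all 13 alternative fits, and none of the other 7 members passed the threshold in any of them. Cdkn1b missed it with the length trend removed (0.28), and Cdkn2c with DESeq2 (0.47) and under a filter of 10 or more counts per library (0.48), so that 1 member was higher in each of these 3 settings in place of 2. With 1 mouse left out, which leaves fewer samples, Cdkn1b lay at 0.27 to 0.38, Cdkn2c at 0.42 to 0.57 and the count of higher members at 0 to 1. Cdk4 ranged from -0.068 to 0.0050, the last value without Ctrl 2. Genes near 0 also changed sign, Ccne2 at 0.0013 with at least 10 counts and between -0.11 and 0.055 with 1 mouse left out, Mki67 between -0.072 and 0.041, and Cdkn1a between -0.32 and 0.093. Within 1 series, values moved by more than the spread of the mice for Ccnd3 (0.20), Cdk6 (-0.13) and Cdkn2d (0.58) in the second, for Rb1 (-0.24) in the first, and for Cdk4 in both (0.079 and -0.12). Over all genes, 296 to 531 higher and 308 to 594 lower genes were called with 1 mouse left out, against 589 and 575, and 873 lower ones without a filter on low counts. Leaving out 1 mouse gave 2 to 6 called genes in the G1 and G1/S list, 0 to 1 in the S phase list, 0 to 2 in the mitotic list, 1 to 2 in the gate list and 1 to 2 in the lineage-positive list. Without the filter, the mitotic, growth signal and gate lists had 2, 7 and 2 called genes, and with the length trend removed the mitotic and gate lists had 1 and 2. The cause was not tested. The Cdk6 to Cdk4 ratio differed by -0.12 without division by length and by -0.03 with it, a change of scale by construction. No paired analysis was possible because the labels give the mice no shared replicate numbers, and no source used here says which of these littermates shared a litter. Cdkn2d, with at most 196 counts per library, had a 95% interval from 0.07 to 0.75, and the part of depth in its width was not tested.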

Other observations

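Mcm5 differed strongly among the libraries labelled cKO. With 171 and 155 CPM in cKO 1 and cKO 3 against 330 CPM in cKO 2 and 343 to 361 CPM in Ctrl, its log2 fold change went from -0.68 over all mice to -1.10 without cKO 2 and -0.48 without cKO 3. DESeq2 gave a similar value of -0.68 with an adjusted p of 0.29, whereas edgeR's quasi-likelihood test gave 0.042. The neighbouring helicase subunits Mcm2, Mcm3, Mcm4, Mcm6 and Mcm7 had log2 fold changes between -0.15 and 0.05, none of them past the threshold.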
